A study of Homo sapiens with 10 samples.

Results

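Human endogenous retrovirus (ERV) genes were examined in HCT116 cells and in DNMT1 KO cells. The set is a list of 8 annotated genes derived from or driven by ERVs (ERVW-1, ERVFRD-1, ERV3-1, ERVMER34-1, ERVK13-1, ERVH48-1, HHLA1 and HHLA2), matched by symbol to Ensembl identifiers, of 58884 genes in the count tables. Of the 8 genes, 3 had enough counts to be tested and 0 were called different between the cell lines, against 13.9% of all genes tested. A call here needed an adjusted p below 0.05 in edgeR's quasi-likelihood test together with a log2 change past 1 or -1. At an unadjusted p below 0.05 the count was also 0 (27.6% of all genes tested), and DESeq2 called 0 of the 3 (16% of all genes). With 3 genes tested, counts of 0 do not set the members apart from all genes tested. The confidence interval of the log2 change (DNMT1 KO over HCT116) still held 1 for ERV3-1 (-0.07 to 1.68) and -1 for ERVK13-1 (-1.33 to 0.69). That of ERVMER34-1 (-0.59 to 0.49) held neither. ERVMER34-1 had the highest level of the members, at 66.2 ± 19.6 CPM (counts scaled to TMM-adjusted library totals, SD, n = 6) in HCT116 and 63.9 ± 12.3 CPM (SD, n = 4) in DNMT1 KO cells. ERV3-1 had a higher mean in DNMT1 KO cells but its libraries overlapped, ERVK13-1 overlapped in full, and the remaining 5 genes were close to or at 0 counts in both lines.

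HCT116 is a human colorectal carcinoma cell line with wild type DNMT1. The DNMT1 KO cells are a single derivative of that line, in which targeting left a truncated, hypomorphic DNMT1, the enzyme that copies DNA methylation onto newly replicated DNA. Polyadenylated RNA was sequenced in 6 HCT116 libraries (replicates 1, 2, 3, 7, 8 and 9) and 4 DNMT1 KO libraries (replicates 1 to 4). Neither line received a treatment. The labels do not say how replicates were made, and the study's figure legends describe them as separately grown cultures. The labels give each library a batch number without saying what it marks. Batch 1 holds replicate 1 of each line, batch 2 holds replicates 2 and 3 of each line, batch 3 holds DNMT1 KO replicate 4, and batch 4 holds HCT116 replicates 7, 8 and 9. The main fit has line as its sole term, so its p-values measure a spread in which cultures and batches are mixed. Its difference between the lines can also hold a part from batches 3 and 4.

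Endogenous retroviruses are remnants of germline infections, and most of their copies have lost their open reading frames. A few envelope genes were kept and taken up by the host, most clearly in the placenta, where the syncytins ERVW-1 and ERVFRD-1 drive fusion of trophoblast cells. Long terminal repeats (LTRs), the promoters of these elements, are commonly methylated in somatic cells, and some of them act as promoters of neighbouring host genes. The set is broader than envelope genes. ERVK13-1 is annotated as a long non-coding RNA, and HHLA1 and HHLA2 are named for their association with an ERV-H LTR. HHLA2 itself encodes an immune ligand of the B7 family and no envelope protein.

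The members lie on 7 chromosomes of hg38, and 7 of the 8 are on the minus strand. In the counted gene models ERVMER34-1 spans chr4:52722618-52751586, ERV3-1 spans chr7:64990356-65006743 and ERVK13-1 spans chr16:2660349-2673444. ERVFRD-1 spans chr6:11102489-11111725, ERVH48-1 spans chr21:42916803-42925646 and HHLA2, the member on the plus strand, spans chr3:108296490-108378285. ERV3-1 shares 825 of its 5027 exonic bases (16.4%) with ZNF117, a zinc finger gene on the same strand, and ERVMER34-1 shares 81 of 4022 exonic bases with LINC01618 on the opposite strand. HHLA1 shares 390 of 6143 exonic bases with ENSG00000258417, and the other 5 members share none. Reads from such shared bases cannot be given to one gene.

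Since DNMT1 maintains methylation at CpG dinucleotides, the 250 bases upstream of the 5′ end of the counted gene model are shown for the tested members. All 3 windows were read from hg38 on the minus strand, overlap no annotated exon of GENCODE release 44, and have CpG dinucleotides in capitals. They lie at chr4:52751587-52751836 (ERVMER34-1), chr7:65006744-65006993 (ERV3-1) and chr16:2673446-2673695 (ERVK13-1). For ERVMER34-1 and ERV3-1 the counted model and the annotated gene have the same 5′ end. The annotated ERVK13-1 gene reaches further, to base 2682398, so its window starts 1 base beyond the counted model but lies inside the annotated gene, 8703 bases short of its 5′ end.
ERVMER34-1: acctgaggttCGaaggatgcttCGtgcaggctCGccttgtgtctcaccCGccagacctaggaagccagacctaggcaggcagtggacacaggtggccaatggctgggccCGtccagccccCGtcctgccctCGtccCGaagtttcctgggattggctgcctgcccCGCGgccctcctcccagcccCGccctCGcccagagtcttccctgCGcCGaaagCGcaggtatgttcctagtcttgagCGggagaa
ERV3-1: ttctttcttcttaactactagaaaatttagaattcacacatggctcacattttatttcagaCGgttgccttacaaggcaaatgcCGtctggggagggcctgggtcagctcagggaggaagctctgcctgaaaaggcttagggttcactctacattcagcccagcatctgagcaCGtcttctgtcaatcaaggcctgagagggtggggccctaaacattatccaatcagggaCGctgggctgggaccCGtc
ERVK13-1: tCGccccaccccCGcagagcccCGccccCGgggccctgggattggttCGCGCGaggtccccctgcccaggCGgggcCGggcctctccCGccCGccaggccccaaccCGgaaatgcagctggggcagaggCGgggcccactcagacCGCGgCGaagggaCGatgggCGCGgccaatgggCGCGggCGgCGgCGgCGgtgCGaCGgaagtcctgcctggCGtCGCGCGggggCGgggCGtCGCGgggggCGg

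The windows differed widely in CpG content, with the limit that the ERVK13-1 window is not upstream of the whole annotated gene. ERVK13-1 had 36 CpGs, a number reached by 4.85% of 35114 RefSeq promoter windows of the same length (GRCh38.p14, median 11). ERVMER34-1 had 16, reached by 41.0% of windows, while ERV3-1 had 5 (65.7%). The letters TATAAA were found on neither strand of any of the 3 windows, against 10.7% of RefSeq windows that hold them on either strand. CCAAT was present in all 3, with 1 match in ERV3-1 and 2 in each of ERVMER34-1 and ERVK13-1, and in 32.0% of RefSeq windows. GGGCGG, which contains a CpG, was matched 5 times in ERVK13-1, 1 time in ERVMER34-1 and 0 times in ERV3-1, and 42.6% of RefSeq windows hold it. These matches describe letters, not bound sites.

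DNMT1 itself was measured first as a check of the labels. Its level ran from 89.8 to 263 CPM in HCT116 libraries, and was 14.1, 19.9, 21.5 and 22.3 CPM in DNMT1 KO replicates 1 to 4. The lines did not overlap (log2 fold change -2.97, SE 0.33, adjusted p = 1.74e-05, edgeR quasi-likelihood test). Library totals ran from 26700853 to 85991812 counts, lowest in DNMT1 KO replicate 4 and highest in HCT116 replicate 9. Among genes with 1 to 10 counts, even numbers made up 64.4% to 70.0% of values in 9 libraries and 39.9% in DNMT1 KO replicate 4. Paired mates counted separately would give even numbers, so intervals that treat each count as independent are too narrow. Of 8 intestinal epithelial markers all had counts in both lines, with a summed level of 2003 to 4485 CPM in HCT116 and 455 to 717 CPM in DNMT1 KO libraries. The sum was carried by KRT8, KRT18 and EPCAM, and of 6 markers tested 4 were called lower and 1 higher. The marker called higher was VIL1, at 0 to 0.0557 CPM in HCT116 and 0.505 to 0.817 CPM in DNMT1 KO libraries, while CDX2 overlapped, at 18.0 to 41.4 against 33.9 to 39.98 CPM. Of 5 fibroblast markers (summed 6.22 to 19.6 and 11.1 to 18.1 CPM, mostly COL1A1 in HCT116) 3 were tested and 2 were called higher, COL3A1 at up to 0.0619 against 1.21 to 8.76 CPM and LUM at up to 0.0310 against 0.730 to 4.83 CPM. VIL1, COL3A1 and LUM passed the filter on low counts through the DNMT1 KO group alone, so they had to differ. The part of these differences in the members' values was not tested, and in bulk RNA fewer expressing cells and less RNA per cell cannot be told apart.

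The levels of members were compared with one another as CPM per kilobase of counted exon. ERVMER34-1 was highest, at 16.5 ± 4.88 (SD, n = 6) in HCT116 and 15.9 ± 3.05 (SD, n = 4) in DNMT1 KO cells, and its lowest library (11.4) exceeded the highest library of every other member. ERV3-1 followed with 1.07 ± 0.556 and 1.87 ± 0.748 CPM per kilobase, and ERVK13-1 with 0.401 ± 0.239 and 0.321 ± 0.129. Their ranges overlapped in HCT116 (0.465 to 1.96 against 0.157 to 0.669) but not in DNMT1 KO cells (0.816 to 2.41 against 0.203 to 0.499). ERVW-1 (0.0306 ± 0.0362 and 0.0287 ± 0.0353) and ERVH48-1 (0.0301 ± 0.0399 and 0.0495 ± 0.0485) could not be ordered, because the spread between libraries was as large as the level. HHLA2 (0.00883 ± 0.0134 and 0.0186 ± 0.00336) and ERVFRD-1 (0.00471 ± 0.00606 and 0.00491 ± 0.00981) were lowest among members with any counts, and HHLA1 had none.

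ERVMER34-1, also known as HEMO, encodes a full-length envelope protein of an old ERV family that is shed from the cell surface. In HCT116 cells its lowest library was 46.0 CPM, the median 63.7 and the highest 96.8. DNMT1 KO replicates 1 to 4 had 61.2, 74.5, 47.6 and 72.2 CPM. All 4 DNMT1 KO libraries lay inside the HCT116 range. The log2 fold change was -0.05 (SE 0.25, 95% interval -0.59 to 0.49, adjusted p = 0.920, edgeR quasi-likelihood test), so a change of 2-fold in either direction lay outside the interval. The sign turned with the scaling: library totals alone gave 0.16, under which the median of all genes tested moved from -0.07 to 0.14. It also turned with the batches. Within batch 1 the log2 ratio of DNMT1 KO to HCT116 CPM was 0.08 and within batch 2 it was 0.38, and the fit with batch as a term gave 0.28 (SE 0.27, adjusted p = 0.569). The 95% interval was -0.29 to 0.85 with batch as a term. In the fit of batch 2 alone it was -0.42 to 1.19, which holds a 2-fold rise. Counts were ample throughout, with 23942 in HCT116 and 11693 in DNMT1 KO cells.

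ERV3-1 encodes the envelope of the single-copy ERV3 element, whose reading frame ends early, and shares its locus with ZNF117. In HCT116 cells it ran from 2.34 CPM through a median of 5.01 to 9.84 CPM. The DNMT1 KO libraries had 9.35, 12.03, 12.13 and 4.10 CPM in replicates 1 to 4. DNMT1 KO replicates 2 and 3 were above all HCT116 libraries, and DNMT1 KO replicate 4 was below 3 of them. With 5.39 ± 2.80 (SD, n = 6) against 9.40 ± 3.76 CPM (SD, n = 4), the log2 fold change was 0.81 (SE 0.41, 95% interval -0.07 to 1.68) and was not significant (adjusted p = 0.220, edgeR quasi-likelihood test). Without HCT116 replicate 3, the highest HCT116 library, it was 1.10 (adjusted p = 0.0688), and over the 20 alternatives it stayed positive between 0.53 and 1.10 with adjusted p from 0.0688 to 0.510. Within batch 1 the log2 ratio of CPM was 0.62 and within batch 2 it was 0.52. Batches 3 and 4 hold libraries of one line each, so there the batch and the line cannot be told apart.

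ZNF117, the gene that shares exonic bases with ERV3-1, had 6.08 ± 2.27 CPM (SD, n = 6) in HCT116 and 11.4 ± 6.33 CPM (SD, n = 4) in DNMT1 KO cells. Its libraries overlapped and it was not called (log2 fold change 0.91, SE 0.37, adjusted p = 0.124, edgeR quasi-likelihood test). Whether reads of one gene enter the value of the other was not tested. The zinc finger genes on either side, ZNF273 (log2 fold change -0.40, SE 0.49) and ZNF92 (-0.25, SE 0.41), were not called either.

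ERVK13-1 is a long non-coding RNA from an ERV-K element. HCT116 libraries ran from 1.41 CPM through a median of 3.55 to 5.99 CPM. In DNMT1 KO replicates 1 to 4 the level was 1.82, 2.29, 4.48 and 2.92 CPM. Every DNMT1 KO library lay inside the HCT116 range, and the HCT116 libraries themselves split into 3 between 1.41 and 2.21 CPM and 3 between 4.89 and 5.99 CPM. The log2 fold change was -0.32 (SE 0.47, 95% interval -1.33 to 0.69, adjusted p = 0.716, edgeR quasi-likelihood test). The direction was not shared by the batches, with a log2 ratio of CPM of 0.35 in batch 1 and -0.63 in batch 2. At this spread, a change of 2-fold downwards remained within the interval.

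**Figure D1:**
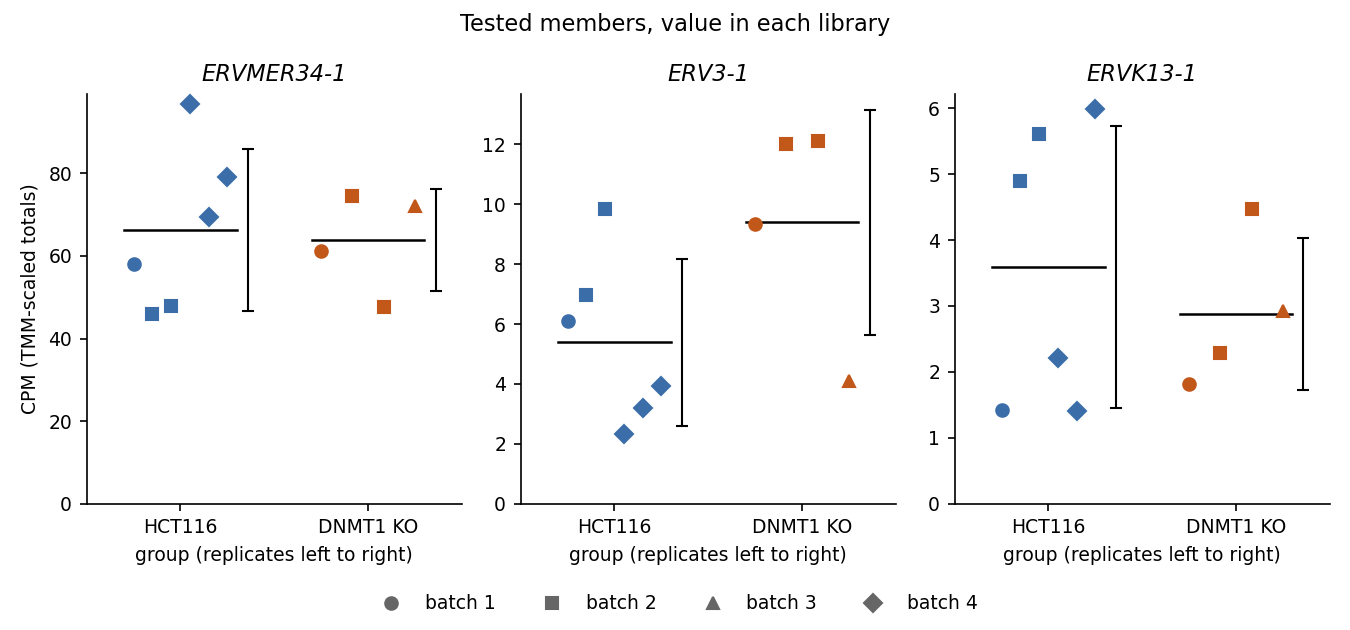
CPM on TMM-scaled totals (y axis, linear from 0) of the 3 tested members in each HCT116 and DNMT1 KO library (x axis, replicates in order from left to right), with the batch given by the marker, the horizontal line at the mean and the bar at the SD. ERVMER34-1 and ERVK13-1 of DNMT1 KO cells sit inside the HCT116 range, while ERV3-1 has 2 DNMT1 KO libraries at 12.03 and 12.13 CPM above the highest HCT116 library at 9.84 CPM.

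The 5 other members fell below the filter on low counts and were not tested in the main comparison. They are given by their counts, with a ratio of pooled counts of DNMT1 KO over HCT116 libraries scaled to TMM totals and its exact 95% interval, which covers counting error only. Any of them can be at 0 counts while present at up to 3 counts in a library, which corresponds to between 0.0349 and 0.104 CPM. If mates were counted separately, these limits are too low.

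ERVW-1 encodes syncytin-1, which fuses trophoblast cells. It had 63 counts in HCT116 and 40 in DNMT1 KO cells. In HCT116 it ran from 0 through a median of 0.0929 to 0.562 CPM, and DNMT1 KO replicates 1 to 4 had 0, 0.107, 0.492 and 0.104 CPM. Counts gathered in a few libraries of both lines, with 21 in HCT116 replicate 3, 30 in HCT116 replicate 9 and 31 in DNMT1 KO replicate 3. The pooled ratio was 1.14 (0.746 to 1.72), and without DNMT1 KO replicate 3 it was 0.386. In that library 1.13% of all counts fell on long non-coding RNA genes, the highest share of the 10 libraries, followed by HCT116 replicates 9 (0.984%) and 3 (0.976%). The part of this in the ERVW-1 counts was not tested.

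ERVH48-1 encodes suppressyn, a secreted envelope product that blocks syncytin-1 fusion. It had 33 counts in HCT116 and 29 in DNMT1 KO cells, and DNMT1 KO replicates 1 to 4 had 0, 0.0711, 0.317 and 0.174 CPM against 0 to 0.244 CPM in HCT116. Most of its HCT116 counts were in replicates 9 (21 counts) and 3 (8 counts), and most of its DNMT1 KO counts were in replicate 3 (20 counts), the libraries that also held most ERVW-1 counts. The pooled ratio was 1.58 (0.923 to 2.68). A single library turned it, to 0.736 without DNMT1 KO replicate 3 and to 3.23 without HCT116 replicate 9.

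ERVFRD-1 encodes syncytin-2. It had 7 counts in HCT116, all in replicates 7, 8 and 9, and 4 counts in DNMT1 KO cells, all in replicate 3. The pooled ratio was 1.02 (0.220 to 4.03), an interval too wide to show a difference of several fold. Without DNMT1 KO replicate 3 that line had 0 counts.

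HHLA2 had 8 counts in HCT116 and 13 in DNMT1 KO cells. All 4 DNMT1 KO libraries had counts, at 0.0505, 0.0711, 0.0794 and 0.0695 CPM, whereas 3 of 6 HCT116 libraries had 0 and the highest, replicate 1, had 0.124 CPM. That library lay above every DNMT1 KO library, so the lines overlapped. The pooled ratio was 2.91 (1.12 to 8.11), and without HCT116 replicate 1 it was 5.27. With the counts of the 9 libraries of mostly even counts halved, it was 3.11 with an interval of 0.833 to 14.1. HHLA1 had 0 counts in all 10 libraries, out of 527940555 counts in all, which allows up to 0.00892 CPM over the pooled HCT116 and 0.0160 CPM over the pooled DNMT1 KO libraries. Both limits are too low if mates were counted separately.

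**Figure D2:**
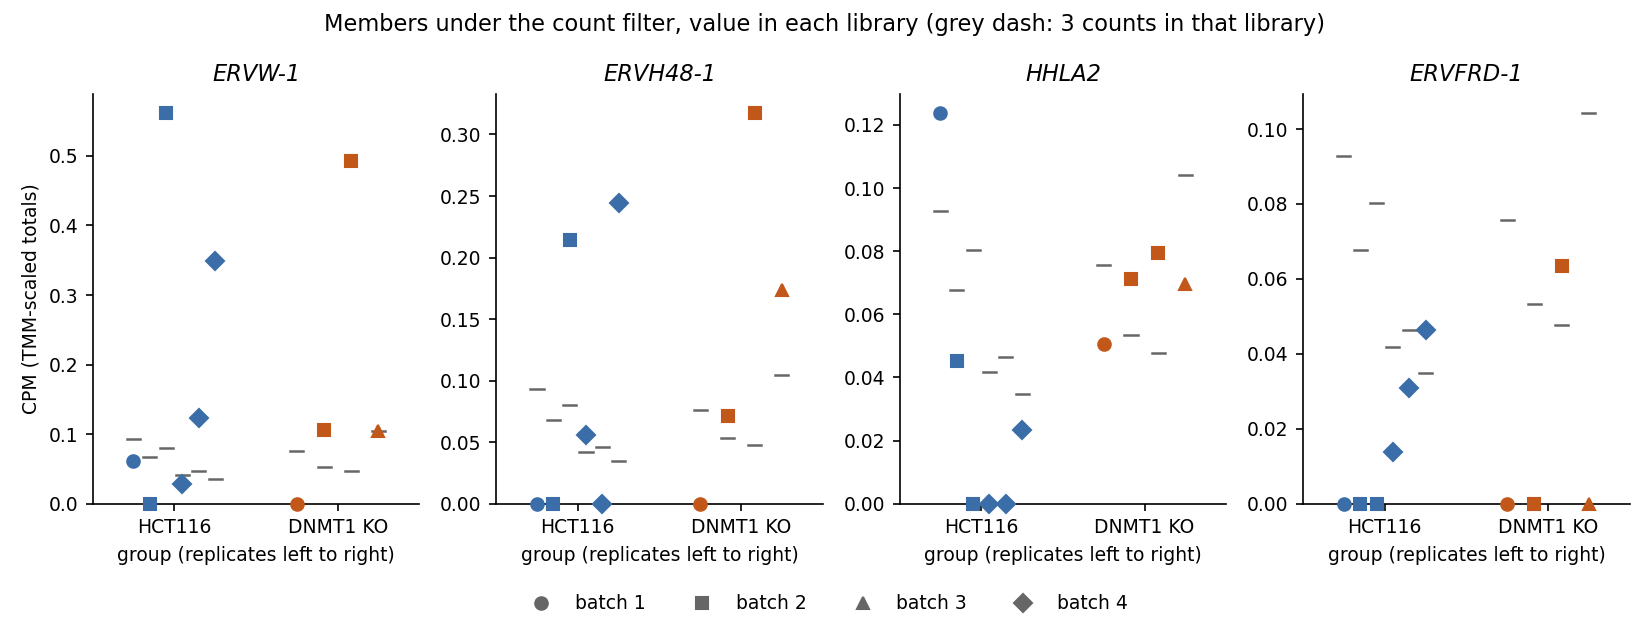
CPM on TMM-scaled totals (y axis, linear from 0, a separate scale in each panel) of ERVW-1, ERVH48-1, HHLA2 and ERVFRD-1 in each library (x axis, replicates in order from left to right), with the batch given by the marker and a grey dash at the CPM that 3 counts give in that library. Points on or under the dash rest on 3 counts or fewer, and DNMT1 KO replicate 3 is the highest DNMT1 KO library in all 4 panels.

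A fit with no filter on low counts placed these members in the same test. There, 0 of 7 members with any count were called, against 9.97% of 35231 genes. The log2 fold changes were -0.05 (SE 0.89) for ERVW-1, 0.03 (SE 1.34) for ERVFRD-1, 0.66 (SE 0.97) for ERVH48-1 and 1.16 (SE 1.11) for HHLA2, with adjusted p from 0.538 to 0.993 (edgeR quasi-likelihood test). These standard errors are near 1 log2 unit, so the data could not have shown a change of 2-fold in any of the 4. For all 3 tested members the libraries of the lines overlapped in CPM, where 15.2% of the genes tested did not overlap. At 3 genes, this does not set the members apart from all genes tested. The 5 members under the filter overlapped as well, but their counts at or near 0 left little room for any other outcome.

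The labels allowed a comparison within one genotype, of HCT116 batch 4 (replicates 7 to 9) with HCT116 batches 1 and 2 (replicates 1 to 3). It shares the HCT116 libraries with the comparison of the lines. ERV3-1 was 2.34, 3.19 and 3.93 CPM in batch 4 and 6.09, 6.97 and 9.84 CPM in batches 1 and 2, without overlap, as for 29.4% of 18656 genes. Its log2 fold change was -1.29 (SE 0.39, adjusted p = 0.0520, edgeR quasi-likelihood test), so 0 of 3 members were called against a background of 8.03% in either direction and 4.94% lower, and 2 of the 3 had an unadjusted p below 0.05, as did 26.1% of all genes tested. It passed the threshold with no filter on low counts (-1.23, adjusted p = 0.0469) and without HCT116 replicate 1 (-1.43, adjusted p = 0.0125). ERVMER34-1 was 96.8, 69.3 and 79.1 CPM in batch 4 and 58.0, 46.0 and 47.9 CPM in batches 1 and 2, again without overlap (0.67, SE 0.30, adjusted p = 0.165). ERVK13-1 overlapped (-0.32, SE 0.57, adjusted p = 0.764). For ERV3-1 and ERVMER34-1 the difference between HCT116 batches was larger in size than the difference between the lines, a contrast that was not itself tested.

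**Figure D3:**
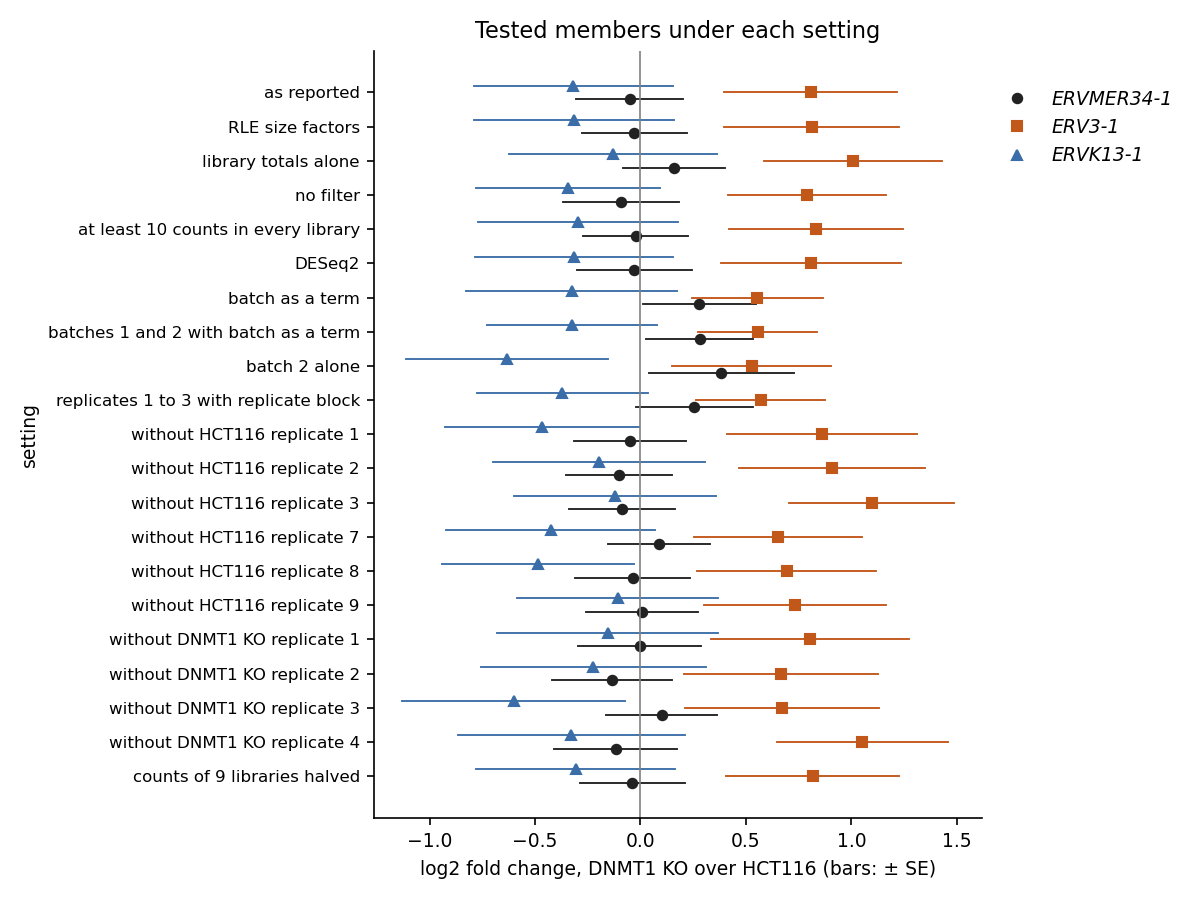
Log2 fold change of DNMT1 KO over HCT116 cells (x axis, bars ± SE) for the 3 tested members under the reported fit and 20 alternatives (y axis). ERV3-1 stays between 0.53 and 1.10 and ERVK13-1 between -0.63 and -0.11, while ERVMER34-1 crosses 0, from -0.13 to 0.38. The alternatives share libraries, and none fits batch 1 alone.

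The partners of the members were then examined. Of 6 receptors and regulators, 3 were tested and 0 were called. SLC1A5, the neutral amino acid transporter that serves as the syncytin-1 receptor, ran from 189 to 599 CPM in HCT116 and from 195 to 241 CPM in DNMT1 KO cells (log2 fold change -0.84, SE 0.34, adjusted p = 0.121, edgeR quasi-likelihood test). In replicates 1 to 3 it was 561, 491 and 599 CPM in HCT116 and 241, 195 and 234 CPM in DNMT1 KO cells. The overlap came from HCT116 replicates 7 to 9, at 342, 189 and 190 CPM. SLC1A4, its relative (0.41, SE 0.65), and MFSD2A, the syncytin-2 receptor (-0.53, SE 0.41), also had overlapping libraries. GCM1, the trophoblast factor that activates both syncytin genes, had 16 counts in HCT116 and 7 in DNMT1 KO cells. Its pooled ratio, scaled to TMM totals, was 0.785 (0.273 to 2.02). Of the HHLA2 receptors, TMIGD2 had 10 counts in HCT116 and 29 in DNMT1 KO cells and KIR3DL3 had 0 in both.

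HHLA2 was also set beside 20 other genes of the B7 and butyrophilin families, of which 13 were tested, 0 were called higher (7.42% of all genes tested) and 1 was called lower (6.49%). The gene called was VSIR, an inhibitory B7 ligand, at 38.7 ± 8.21 CPM (SD, n = 6) in HCT116 and 13.8 ± 2.35 CPM (SD, n = 4) in DNMT1 KO cells (log2 fold change -1.49, SE 0.24, adjusted p = 0.000432, edgeR quasi-likelihood test). The median log2 fold change of the 13 genes was 0.05, and that of all genes tested was -0.07.

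As the envelope genes are best known from the placenta, 18 trophoblast markers were counted in the same libraries. Their summed level was 10.9 to 43.6 CPM in HCT116 and 5.60 to 11.1 CPM in DNMT1 KO cells, and 11 and 7 of them, CGA, CSH1, PSG1 and HLA-G among both, were at 0. Of 4 tested, 0 were called higher and 2 lower, where 7.42% and 6.49% of all genes tested were called. These were KRT7, a keratin (log2 fold change -3.64, SE 0.71), and TFAP2C, a transcription factor (-1.13, SE 0.33), which other epithelia express as well. TFAP2C was 6.29 to 14.2 CPM in HCT116 and 2.54 to 7.35 CPM in DNMT1 KO cells, so its libraries overlapped. Its call was lost without any one of HCT116 replicates 1 and 3 or DNMT1 KO replicates 1, 2 and 4, with values between -1.13 and -0.93.

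Of 24 genes overlapping or next to the members, 15 were tested and 1 was called, against 13.9% of all genes tested. MYH15, a myosin heavy chain gene 2083 bases beyond the 3′ end of HHLA2, was 14.98 ± 9.72 CPM (SD, n = 6) in HCT116 and 3.39 ± 1.89 CPM (SD, n = 4) in DNMT1 KO cells (log2 fold change -2.13, SE 0.51, adjusted p = 0.00852, edgeR quasi-likelihood test). The lines only just separated, with the lowest HCT116 library at 6.16 CPM and the highest DNMT1 KO library at 6.13 CPM. Libraries did not overlap for 15.2% of all genes tested. MYH15 also differed between HCT116 batches (-1.55, SE 0.37, adjusted p = 0.0230), with 6.16 to 9.97 CPM in batch 4. Around ERVMER34-1, DANCR, a non-coding RNA gene whose span overlaps it without sharing exonic bases, had a log2 fold change of -0.38 (SE 0.52), and USP46, a deubiquitinase gene, had -0.73 (SE 0.22, adjusted p = 0.0354), under the fold limit. KCTD5, 125 bases from the annotated ERVK13-1 gene, was -0.32 (SE 0.22), SMIM13, which contains ERVFRD-1, was 0.06 (SE 0.25), and NDUFV3 beside ERVH48-1 was 0.31 (SE 0.19). None of these 3 was called.

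The genes most like each tested member across the 10 libraries were named by Pearson's r of log2(CPM + 0.5), as a description over libraries that share batches and line. ERV3-1 was closest to APPL2 and SNED1 (both r = 0.97), ERVMER34-1 to HNRNPA2B1 and TTF2 (both r = 0.97), and ERVK13-1 to ZNF587 (r = 0.94) and CAMTA2-AS1 (r = 0.93).

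The other annotated ERV genes were examined in the same fit. Of 8 further genes with ERV symbols, 2 were tested and 0 were called. ERVK3-1 was 7.998 ± 4.29 CPM (SD, n = 6) in HCT116 and 8.19 ± 2.87 CPM (SD, n = 4) in DNMT1 KO cells (log2 fold change 0.03, SE 0.36), and ERVK9-11 had 0.01 (SE 0.48). ERVE-1, which was not tested, had 98 counts in HCT116, 90 of them in replicates 2 and 3, and 1 count in DNMT1 KO cells. ERVV-1 and ERVV-2, placental envelope genes, had 0 counts in HCT116 and 2 each in DNMT1 KO cells.

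Genes that the host took from other retroelements were counted beside the members. These derive mainly from the gag genes of LTR retrotransposons. Of 24 such genes, 16 were tested, 9 were called higher in DNMT1 KO cells and 0 lower, where 7.42% and 6.49% of all genes tested were called. RTL1, PNMA5 and PNMA3 had the largest changes, at log2 fold changes of 6.38 (SE 0.81), 4.67 (SE 0.74) and 4.11 (SE 0.76). They had 2, 6 and 12 counts in all HCT116 libraries against 142, 98 and 122 in DNMT1 KO cells, so these 3 passed the filter through the DNMT1 KO group alone and had to differ. PEG10, an imprinted gene needed for placental development, is named after its values were seen. It ran from 13.7 to 85.9 CPM in HCT116 and was 751, 909, 487 and 599 CPM in DNMT1 KO replicates 1 to 4, without overlap (log2 fold change 4.01, SE 0.45, adjusted p = 1.71e-05, edgeR quasi-likelihood test). The median log2 fold change of the 16 was 1.93, that of the 3 tested members was -0.05 and that of all genes tested was -0.07. The median of 1.93 and the 9 calls include RTL1, PNMA5 and PNMA3, which had to differ, so they do not describe the other genes alone. The difference between the lists was not tested.

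**Figure D4:**
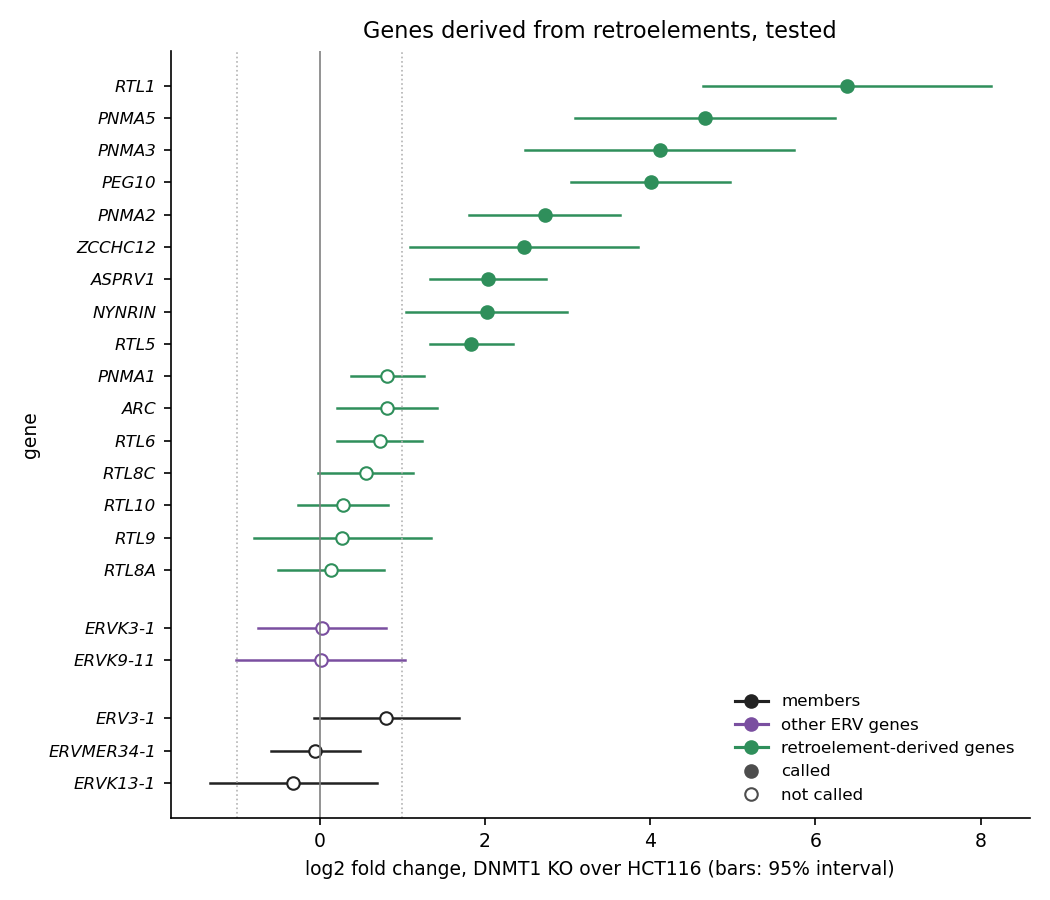
Log2 fold change of DNMT1 KO over HCT116 cells (x axis, bars are 95% intervals) for the tested members, other ERV genes and other retroelement-derived genes (y axis), with filled points for called genes, whose adjusted p is under 0.05 and whose change lies beyond the dotted lines at 1 and -1. The 3 members and 2 other ERV genes are open points, and 9 of 16 retroelement-derived genes are filled points to the right. Of these 9, RTL1, PNMA5 and PNMA3 passed the filter through the DNMT1 KO group alone and had to differ.

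Host genes for which an ERV LTR is known as a promoter were counted as well. Of 22 such genes, 8 were tested, 2 were called higher and 1 lower, where 7.42% and 6.49% of all genes tested were called, and 5 were not called. Of the 3 calls, those of APOC1 and B3GALT5 are of genes that passed the filter through one line alone and had to differ. APOC1, an apolipoprotein gene, was 0.0965 ± 0.0333 CPM (SD, n = 6) in HCT116 and 6.32 ± 1.34 CPM (SD, n = 4) in DNMT1 KO cells with 34 and 1192 counts (log2 fold change 5.96, SE 0.37). MID1, a ubiquitin ligase gene, had 1.07 (SE 0.34, adjusted p = 0.0453, edgeR quasi-likelihood test) with overlapping libraries. The MID1 call was lost without any one of HCT116 replicates 1, 2, 3 and 8 or DNMT1 KO replicates 1, 2 and 4, with values between 0.87 and 1.12. B3GALT5, a galactosyltransferase gene with an ERV-L LTR promoter in colon, ran from 2.26 to 21.7 CPM in HCT116 (2686 counts) and had 3 counts in DNMT1 KO cells, all in replicate 3. Its pooled ratio was 0.00200 (0.000413 to 0.00586). Which promoter was used was not measured.

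Finally, 10 genes of ERV silencing were examined, and 0 were called. TRIM28, the corepressor that zinc finger proteins bring to ERVs, was at -0.04 (SE 0.34) and SETDB1, its H3K9 methyltransferase partner, at 0.12 (SE 0.22). ATF7IP, which stabilises SETDB1, and MORC2, a partner of the HUSH silencing complex, passed the adjusted threshold at 0.83 (SE 0.23, adjusted p = 0.0244) and 0.82 (SE 0.25, adjusted p = 0.0339, edgeR quasi-likelihood test), with changes under the fold limit. An adjusted p under 0.05 was found for 16.1% of all genes tested, and for 0 of the 3 tested members, too few genes to compare with that share.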

How the data were processed

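The 10 libraries were made by the authors from polyadenylated RNA with a stranded kit and sequenced as paired ends. Per the submitters' processing notes and the study's methods, reads were checked with FastQC 0.11.4, trimmed with Trim Galore 0.4.1, aligned to hg38 using bowtie2, an aligner that leaves exon-spanning reads unsplit, filtered at a mapping quality of 10 with samtools and summarised over exons by featureCounts; the methods name no strand setting. The mapping quality filter removes reads that match several near-identical copies, so recently amplified ERV copies and other duplicated genes can be undercounted. A gene at 0 counts is therefore not shown to be silent. The deposited tables, one per library, hold raw, unnormalised counts. A further 3 tables of HCT116 replicates 4 to 6 match no listed sample and were not used here.

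Each library was placed in its line by its title. Differential expression was tested with edgeR 4.0.16 in R 4.3.3 (TMM, filterByExpr defaults, glmQLFit and glmQLFTest, line as the sole term, two-sided), with Benjamini-Hochberg adjustment over the 19279 genes tested, of which 1431 were called higher and 1251 lower in DNMT1 KO cells. Genes were called where the adjusted p was under 0.05 and the log2 change lay beyond 1 or -1. The second comparison used the 6 HCT116 libraries. CPM were counts over TMM-scaled totals. Standard errors were derived from the change and its F statistic. Exact intervals of pooled count ratios and the floor of 3 counts cover counting error only. Windows upstream of the counted gene models were read from hg38, and 4 letter patterns were counted in them and in RefSeq windows. Some items are not reported here. The fits were tested on simulated counts. Alternatives were RLE factors, library totals, no filter, at least 10 counts in every library, DESeq2 1.42.0, batch as a term, batches 1 and 2, batch 2, the replicate number as a block, halved counts and leaving out each library. The count of retroelement-derived genes and the pooled ratios under alternatives were added after seeing the data. The members and gene lists were chosen with earlier results of these data known. Named genes were the members, up to 3 called genes in each direction from each list, neighbouring genes, and the 2 most like genes of each tested member.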

Additional observations from a re-analysis of the deposited data

Results flagged for a closer look

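Among the members, 2 values stood apart from the other libraries of their line, where the gap to the nearest library exceeded Dixon's 95% critical value, over 14 groups of libraries with any counts, where chance flags about 1 in 20 groups. HHLA2 in HCT116 replicate 1, at 0.124 CPM (4 counts), was above the 0 to 0.0451 CPM of the other HCT116 libraries. ERVFRD-1 in DNMT1 KO replicate 3, at 0.0635 CPM (4 counts), stood against 0 in the other DNMT1 KO libraries. With 0 in all other DNMT1 KO libraries, any count of ERVFRD-1 would have been flagged. Both values rest on 4 counts, where the rate of about 1 in 20 groups need not hold.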

How the results depend on the processing

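Under the 20 alternatives of the comparison of the lines, 0 of the members were called. ERV3-1 kept its direction in all of them (0.53 to 1.10) and so did ERVK13-1 (-0.63 to -0.11). These alternatives reuse the same libraries, so a kept direction is not independent evidence. None fits batch 1 alone, where the log2 ratio of ERVK13-1 CPM was 0.35. ERVMER34-1 turned positive with library totals alone (0.16), batch as a term (0.28), batches 1 and 2 with batch as a term (0.28), batch 2 alone (0.38) and the replicate block (0.26), and leaving out single libraries moved it from -0.13 to 0.10, positive without HCT116 replicate 7 (0.09), HCT116 replicate 9 (0.01) and DNMT1 KO replicate 3 (0.10), and what turned it, the cause, was not tested. Genes called higher went from 1431 to 734 and genes called lower from 1251 to 766 with at least 10 counts in every library, where fewer genes were tested, and to 815 and 798 in batch 2 alone, with fewer libraries. Library totals alone gave 1878 genes higher and 956 lower.

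In HCT116 batch 4 against batches 1 and 2, ERV3-1 passed the threshold with no filter (-1.23) and without HCT116 replicate 1 (-1.43), so 1 member was called in each, and 0 to 1 over single libraries left out, with ERV3-1 from -1.50 to -1.06 and ERVK13-1 from -1.17 to 0.047, positive without HCT116 replicate 3 (0.018) or 8 (0.047). Leaving out single libraries moved the genes called higher from 577 to between 46 and 1800 and those called lower from 921 to between 187 and 1770. No filter gave 1280 higher. The cause was not tested.

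Replicates 1 to 3 of both lines share numbers. Same-numbered libraries deviated together in 2 of 3 pairs (r = 0.55, -0.27 and 0.37). The shared numbers also follow batches 1 and 2, so pairing and batch cannot be told apart. These values do not settle whether the numbers pair the libraries. With the replicate block, ERV3-1 was 0.57, ERVMER34-1 0.26 and ERVK13-1 -0.37, and 1232 genes were called higher and 1235 lower. The retroelement-derived genes called higher numbered 6 to 11 over the alternatives, which were added after seeing the data.

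Depth limits the 5 members under the filter. When single libraries were left out, the pooled ratios of ERVW-1 (0.386 to 1.62), ERVH48-1 (0.736 to 3.23) and ERVFRD-1 (0 to 1.78) fell on both sides of 1, that of HHLA2 stayed above 1 (2.29 to 5.27), and HHLA1 had no counts.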
